A study of Mus musculus with 95 samples.

Results

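Type I interferon-stimulated genes are genes that cells switch on when alpha or beta interferon binds its receptor, and 37 of them, chosen by name, are described here out of the 55471 features of the count table. All 37 symbols matched 1 gene each. The samples are punches of the nucleus accumbens from B6;FVB mice with the transgene Tg(Aldh1l1-EGFP/Rpl10a)JD130Htz, which carry a ribosomal protein fused to a fluorescent tag under the control of Aldh1l1, a gene of astrocytes. Pulling down the tagged ribosomes (translating ribosome affinity purification) gave the IP library of a mouse, which is enriched for RNA being translated in astrocytes, and RNA of the whole punch gave its input library. All groups carry the transgene. Mice labelled Dependent went through 5 rounds of chronic intermittent ethanol exposure (CIE) combined with voluntary 2-bottle choice drinking (2BC), those labelled non-Dependent had 2BC alone, and those labelled Naïve received no ethanol. No age is given in the labels.

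There are 95 libraries from 49 mice, and 46 mice have an IP and an input library. Both sexes are present in every group, and each mouse belongs to 1 of 6 batches (C, G, I, J, K or L), which is also the first letter of its name below. The comparisons use batches I, J, K and L, with 16 dependent, 13 non-dependent and 15 naive IP libraries and 16, 15 and 16 input libraries. Naive mice are missing from batch I and non-dependent mice from batch L. The single mice of batches C and G, both dependent females, are given only as values. Within a fraction each library is a separate mouse, so the p-values of the treatment comparisons measure the spread between these mice. Tests that join IP and input pair both libraries of a mouse. Total counts ran from 14314236 to 27146790 in IP and from 12803108 to 23948193 in input, and levels are given in CPM, the count of a gene scaled to the total of its library.

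Type I interferon binds the receptor pair Ifnar1 and Ifnar2, and the kinases Jak1 and Tyk2 then activate transcription factors. Stat2 and Irf9 are parts of the complex that binds the interferon-stimulated response element in promoters and raises transcription of a broad antiviral programme. In brain, microglia and astrocytes both carry out this response. The members below include the sensors of foreign RNA and DNA, the transcription factors of the pathway itself, proteins that block viral RNA or its translation, the ubiquitin-like Isg15 and its enzymes, and proteins that act on virus assembly or on cell death. Interferon gamma uses another receptor, and many genes answer to both.

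Promoter sequence was matched for 27 of the 37 members, from RefSeq windows of 300 bases in GRCm38.p6 that run from 250 bases before to 50 bases after the start of transcription. The core of the interferon-stimulated response element, GAAA followed after any 2 bases by a second GAAA, was searched on both strands, as was TTCNNNGAA, a core of the gamma-activated site of interferon gamma signalling. The response element core stood in a window of 13 of 27 members, against 3.99% of 27025 genes, and TTCNNNGAA in 6 of 27, against 9.55%. Of the 11 members with a window that were called higher in dependent than in non-dependent IP (below), 2 held the response element core, and of the 16 others 11 did. The windows of 4 members with small p-values in that comparison are shown because they hold between 3 matches and none. Capitals mark the response element core and its overlapping repeats, and each sequence reads 5′ to 3′ on the strand of its gene.

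Isg15 (chr4:156200769-156201068, minus strand): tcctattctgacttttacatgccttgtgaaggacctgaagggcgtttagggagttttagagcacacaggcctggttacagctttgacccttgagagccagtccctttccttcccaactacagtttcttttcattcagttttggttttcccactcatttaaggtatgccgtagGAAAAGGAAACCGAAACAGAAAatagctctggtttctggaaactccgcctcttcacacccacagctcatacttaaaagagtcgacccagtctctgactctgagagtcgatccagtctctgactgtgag
Bst2 (chr8:71537423-71537722, minus strand): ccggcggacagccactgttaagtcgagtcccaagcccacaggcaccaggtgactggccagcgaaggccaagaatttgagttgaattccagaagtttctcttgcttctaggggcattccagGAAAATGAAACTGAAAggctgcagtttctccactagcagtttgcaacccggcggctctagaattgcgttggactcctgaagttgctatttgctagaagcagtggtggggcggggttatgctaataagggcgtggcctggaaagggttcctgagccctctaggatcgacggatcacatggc
Xaf1 (chr11:72301379-72301678, plus strand): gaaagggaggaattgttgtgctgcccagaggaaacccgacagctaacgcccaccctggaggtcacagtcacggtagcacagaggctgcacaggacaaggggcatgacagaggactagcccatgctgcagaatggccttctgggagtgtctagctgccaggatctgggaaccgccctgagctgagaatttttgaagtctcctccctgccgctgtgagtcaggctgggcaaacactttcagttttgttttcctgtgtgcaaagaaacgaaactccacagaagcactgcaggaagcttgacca
Oasl2 (chr5:114896684-114896983, plus strand): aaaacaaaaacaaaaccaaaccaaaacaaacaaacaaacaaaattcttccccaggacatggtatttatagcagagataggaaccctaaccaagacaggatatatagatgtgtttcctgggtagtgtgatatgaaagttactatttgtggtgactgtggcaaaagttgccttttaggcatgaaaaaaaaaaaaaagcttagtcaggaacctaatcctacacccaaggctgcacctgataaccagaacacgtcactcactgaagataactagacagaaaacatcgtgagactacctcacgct

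Isg15 (ENSMUSG00000035692) held 3 overlapping matches, which start 78, 72 and 66 bases before its start site. Bst2 (ENSMUSG00000046718) held 2 overlapping matches 130 and 124 bases before the start and 1 TTCNNNGAA at 136 bases before it. No match of either kind lay in these windows of Xaf1 (ENSMUSG00000040483) or Oasl2 (ENSMUSG00000029561), which says only that the letters are not in these 300 bases. Ifit3 and Ifit3b, neighbouring paralogs, each held 2 matches, at 156 and 122 bases and at 188 and 154 bases before the start. Several members lie side by side in the genome (GRCm38, GENCODE release M21). The 4 Ifit genes lie on chromosome 19 between 34550694 and 34650009, Parp14, Dtx3l and Parp9 on chromosome 16 between 35832874 and 35972605, Rsad2 and Cmpk2 on chromosome 12 between 26442746 and 26479837, and Oasl2 and Oasl1 on chromosome 5 between 114896936 and 114937915. Exons of Dtx3l and Parp9 overlap on opposite strands, as do those of Irf7 and Phrf1, and exons of Irf9 and Rnf31 overlap on the same strand. The use of strand in counting is not given in the sources used here, so reads of such partners, and of paralogs such as Ifit3 and Ifit3b, may be counted in part for each other.

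The IP libraries were checked against cell type markers. All 12 astrocyte markers were higher in IP than in the input of the same mouse (median log2 fold change 3.11), and all 18 microglia markers were lower (median -1.10). Some libraries stood apart. The summed level of the 18 microglia markers was 239.6 to 1002 CPM (median 340.1) in dependent IP libraries, against 260.4 to 356 (median 316) in non-dependent and 257 to 357 (median 307) in naive ones. The mean of these markers was highest in dependent mice I02 and J05, and the mean of the members in dependent mice I11, I02 and I05, all of batch I. The main counts in IP and input, and those of the interferon gamma list in IP, are given below with and without such mice. Leaving out I02, I05 and I11 removes libraries because the members were high there, so lower counts follow in part from that choice.

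The first comparison set the astrocyte-enriched IP of dependent mice against that of mice that only drank. In it 15 members were higher in dependent mice, and no member was lower. Xaf1, a protein that promotes cell death, rose by 2.14 on the log2 scale, Bst2, which tethers budding virus to the cell surface, by 3.22, and Oasl2, an antiviral protein of the oligoadenylate synthetase family, by 3.06. The other 12 were Ifi27, Parp14, Lgals3bp, Isg15, Irf9, Ifi35, Rtp4, Zbp1, Trim25, Ifi44, Irf7 and Dtx3l. The test was the quasi-likelihood F test of edgeR with Benjamini-Hochberg adjustment over the 19979 genes tested, called at an adjusted p at or under 0.05, and 1.10% of those genes were called higher. A filter on low counts left 34 of the 37 members, and Oas2, Oasl1 and Mx1 were not tested. The fold change was above 0 for 34 of 34 tested members, with a median of 1.14, against 50.4% of all genes tested with a median of 0.00; those of Sp100, Trim30a, Samhd1, Cmpk2 and Ifih1 turned below 0 under at least 1 alternative. Without batch I 0 members were called, as described with the batches below. How many of all genes were called in that setting is not given here, so this loss cannot be read as particular to the members. Fold changes below are given ± a standard error (SE). It was derived from the test, as the size of the fold change over the square root of the F statistic. In bulk RNA such as this, more cells of a kind and more RNA per cell cannot be told apart.

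**Figure D1:**
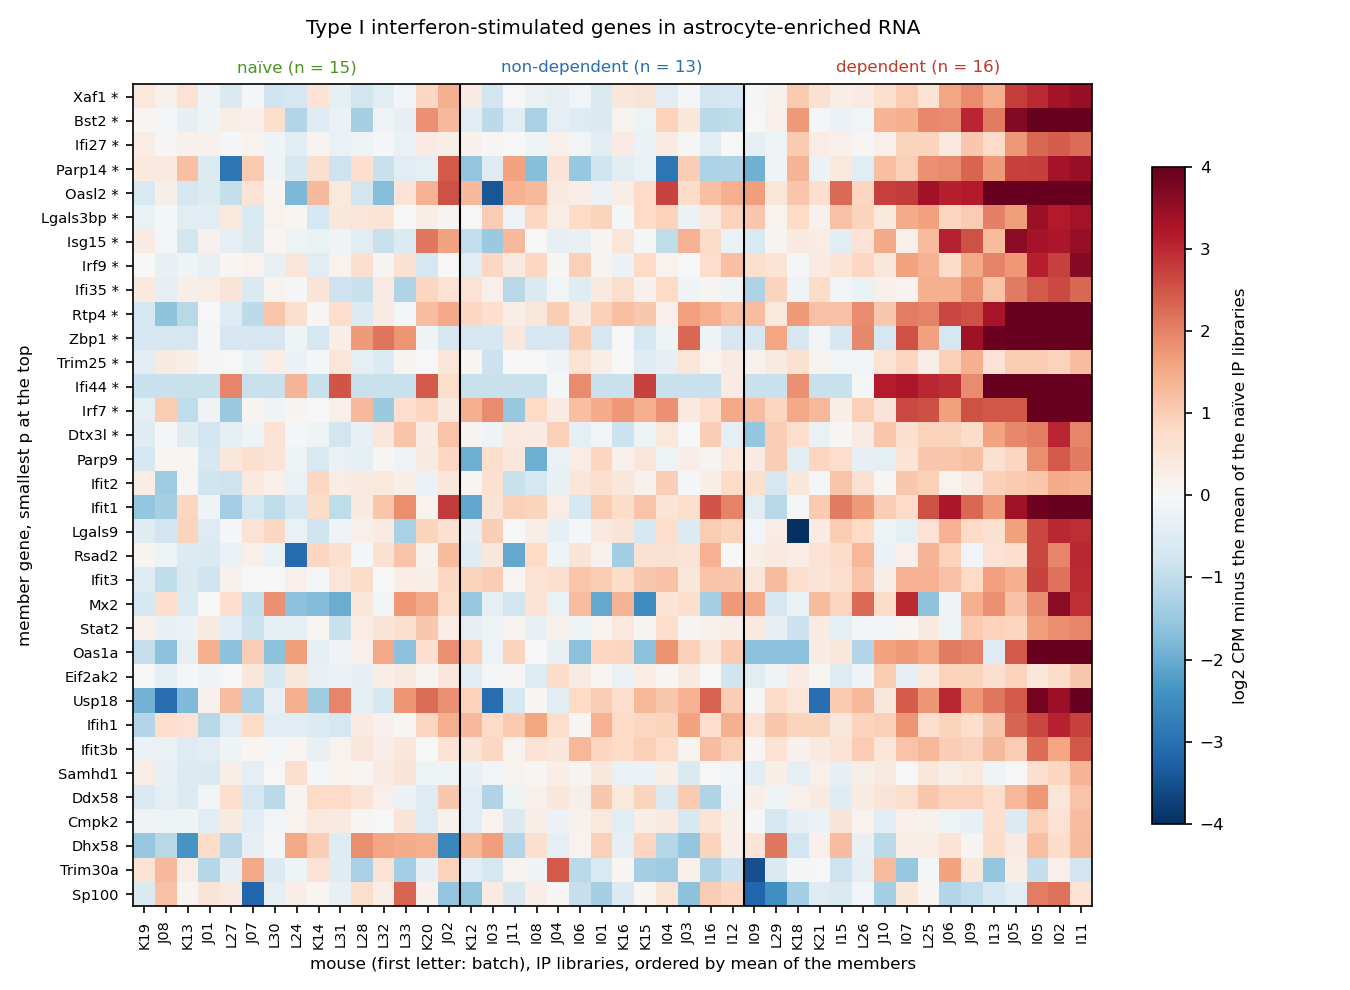
Level of each tested member (rows, ordered by p in dependent against non-dependent IP, an asterisk for an adjusted p at or under 0.05) in each IP library (columns, 16 dependent, 13 non-dependent and 15 naive mice), as log2 CPM minus the mean of the naive libraries, with colours capped at 4 in either direction. Red columns stand at the right of the dependent block, where mice I11, I02 and I05 are, while the dependent mice at its left resemble the other groups.

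Of the 3 transcription factors among the members, 2 rose. Irf9, the DNA-binding subunit of the interferon-activated complex, spanned 5.88 to 92 (median 16.1) CPM in dependent, 4.65 to 16.9 (median 8.85) in non-dependent and 3.97 to 11.2 (median 6.34) in naive IP libraries. The groups overlapped, and 8 of 16 dependent libraries lay above every non-dependent one. Its log2 fold change was 1.13 ± 0.24 (adjusted p = 0.00564). Irf7, which drives interferon alpha genes, spanned 0.884 to 24.1 (median 3.15) CPM in dependent, 0.177 to 2.95 (median 1.9) in non-dependent and 0.185 to 1.89 (median 0.713) in naive libraries. Again 8 of 16 dependent libraries lay above every non-dependent one, with a log2 fold change of 1.76 ± 0.42 (adjusted p = 0.016). Stat2, the partner of Irf9, showed a log2 fold change of 0.62 ± 0.23 (adjusted p = 0.213) and was not called.

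Among the 4 sensors, Zbp1, which detects Z-form nucleic acid and can trigger cell death, was the one called. Zbp1 spanned 0 to 11.7 (median 0.479) CPM in dependent IP libraries, with 5 of 16 at 0, and reached at most 0.679 in non-dependent and 0.615 in naive ones, where 7 of 13 and 8 of 15 were at 0. Its log2 fold change of 4.47 ± 1.02 (adjusted p = 0.0114) therefore rests on few counts in the controls. The RNA sensors Ddx58 (RIG-I), Ifih1 (MDA5) and Dhx58 (LGP2) had log2 fold changes of 0.46, 0.63 and 0.18 and adjusted p of 0.494, 0.321 and 0.93.

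None of the 4 IFIT genes, whose products bind foreign RNA and hold back its translation, passed the test over all genes. All 4 had an unadjusted p under 0.05, which is not set against the share of all genes here. Ifit1 showed a log2 fold change of 1.78 ± 0.55 (adjusted p = 0.0993), Ifit2 of 0.55, Ifit3 of 0.57 and Ifit3b of 0.37, with adjusted p of 0.0928, 0.18 and 0.355 for the last 3. Ifit3 already stood at 40.7 to 91.6 (median 79.9) CPM in non-dependent libraries, against 17.9 to 65.2 (median 40.6) in naive and 41.1 to 329 (median 92.1) in dependent ones. The non-dependent median thus lay between the other 2, and the groups overlapped.

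Oasl2 was the called member of the oligoadenylate synthetase family. It spanned 2.05 to 126 (median 11.6) CPM in dependent, 0.044 to 10.1 (median 2.62) in non-dependent and 0.344 to 8.21 (median 1.58) in naive IP libraries. The groups overlapped, and 9 of 16 dependent libraries lay above every non-dependent one. The log2 fold change was 3.06 ± 0.59 (adjusted p = 0.00275). Oas1a, which makes the second messenger that activates RNase L, had 1.97 ± 0.79 (adjusted p = 0.262), and Eif2ak2, the kinase PKR that halts translation, had 0.37 ± 0.16 (adjusted p = 0.293), and neither was called.

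In the ISG15 system, the ubiquitin-like modifier Isg15 and Trim25, a ligase that attaches it, both rose. Isg15 spanned 1.82 to 31.8 (median 6.66) CPM in dependent, 0.88 to 6.79 (median 2.67) in non-dependent and 1.35 to 10.8 (median 2.23) in naive IP libraries, and 7 of 16 dependent libraries lay above every non-dependent one. Its log2 fold change was 2.04 ± 0.42 (adjusted p = 0.00427). Trim25 spanned 7.63 to 20.9 (median 12) CPM in dependent, 4.58 to 13 (median 8.2) in non-dependent and 5.38 to 11.7 (median 7.53) in naive libraries, with a log2 fold change of 0.65 ± 0.15 (adjusted p = 0.0127). Usp18, which removes Isg15 and also damps receptor signalling, had 1.51 ± 0.64 (adjusted p = 0.297) and was not called.

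Bst2 was the called member of the 6 antiviral effectors tested. It spanned 5.42 to 209 (median 20.3) CPM in dependent IP libraries, 2.71 to 12.5 (median 4.54) in non-dependent and 2.48 to 21.5 (median 5.48) in naive ones. In 11 of 16 dependent libraries the level lay above every non-dependent one, the largest such number among the members, and the log2 fold change was 3.22 ± 0.54 (adjusted p = 0.000706). The GTPase Mx2, annotated as a polymorphic pseudogene, and Rsad2 (viperin) had log2 fold changes of 1.54 and 0.96. The mitochondrial nucleotide kinase Cmpk2, Samhd1, which breaks down nucleotides, and Trim30a had 0.15, 0.27 and 0.07. Their adjusted p lay between 0.144 (Rsad2) and 0.966 (Trim30a). Trim30a ranged widely inside each group, with 10.3 to 309 (median 91.6) CPM in dependent, 41.2 to 551 (median 73) in non-dependent and 44.2 to 288 (median 97.3) in naive libraries.

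In the PARP9-DTX3L module, a ligase complex of interferon signalling with its relative Parp14, 2 of 3 genes rose. Parp14, which attaches single ADP-ribose groups to proteins, spanned 0.11 to 8.83 (median 2.04) CPM in dependent, 0 to 2.18 (median 0.34) in non-dependent and 0 to 3.73 (median 0.596) in naive IP libraries. Its log2 fold change was 2.66 ± 0.52 (adjusted p = 0.00271), and 8 of 16 dependent libraries lay above every non-dependent one. Dtx3l spanned 1.21 to 29.2 (median 6.42) CPM in dependent, 1.83 to 7.28 (median 3.39) in non-dependent and 1.8 to 8.08 (median 2.89) in naive libraries, with a log2 fold change of 1.14 ± 0.29 (adjusted p = 0.0305). The call for Dtx3l was lost when any 1 of 7 of the 29 libraries was left out (I02, I11, J05, K18, I03, I06 or I12, adjusted p up to 0.0843). The calls of the other 14 members held in all 29 such runs. Parp9 showed a log2 fold change of 0.87 ± 0.26 (adjusted p = 0.0735).

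Of the 8 remaining members, 6 rose. Xaf1 spanned 10.03 to 112 (median 18.8) CPM in dependent, 5.63 to 14.1 (median 8.35) in non-dependent and 5.42 to 23.4 (median 8.17) in naive IP libraries. The groups overlapped, 10 of 16 dependent libraries lay above every non-dependent one, and the log2 fold change was 2.14 ± 0.32 (adjusted p = 0.000151), the smallest p among the members. Ifi27, a small membrane protein of mitochondria, spanned 74.5 to 483 (median 161) CPM in dependent, 66 to 115 (median 90.3) in non-dependent and 66 to 106 (median 86.9) in naive libraries, a log2 fold change of 1.20 ± 0.22 (adjusted p = 0.00187). The groups overlapped, and 9 of 16 dependent libraries exceeded every non-dependent one.

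Rtp4, a chaperone of membrane receptors, spanned 4.74 to 117 (median 15.3) CPM in dependent, 4.13 to 10.9 (median 6.57) in non-dependent and 0.995 to 9.45 (median 3.43) in naive IP libraries, with a log2 fold change of 2.09 ± 0.44 (adjusted p = 0.0067). Lgals3bp, a secreted glycoprotein that binds galectins, spanned 27 to 301 (median 58.6) CPM in dependent, 21.2 to 53 (median 45.7) in non-dependent and 14.6 to 37.3 (median 27) in naive libraries, with 1.18 ± 0.23 (adjusted p = 0.00307). Ifi35, a leucine zipper protein, spanned 1.16 to 16.7 (median 5.47) CPM, 1.12 to 4.63 (median 2.99) and 1.12 to 4.5 (median 2.93) in the same order, with 1.41 ± 0.30 (adjusted p = 0.00636). For these 3 genes 10, 9 and 9 of 16 dependent libraries lay above every non-dependent one. Ifi44 was at 0 in 4 of 16 dependent, 9 of 13 non-dependent and 10 of 15 naive IP libraries and reached 24.5, 1.21 and 0.971 CPM, so its log2 fold change of 5.02 ± 1.17 (adjusted p = 0.0133) also rests on few counts in the controls. Lgals9, or galectin-9, had 1.13 ± 0.37 (adjusted p = 0.127) and the nuclear body protein Sp100 0.12 ± 0.50 (adjusted p = 0.968), and neither was called.

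**Figure D2:**
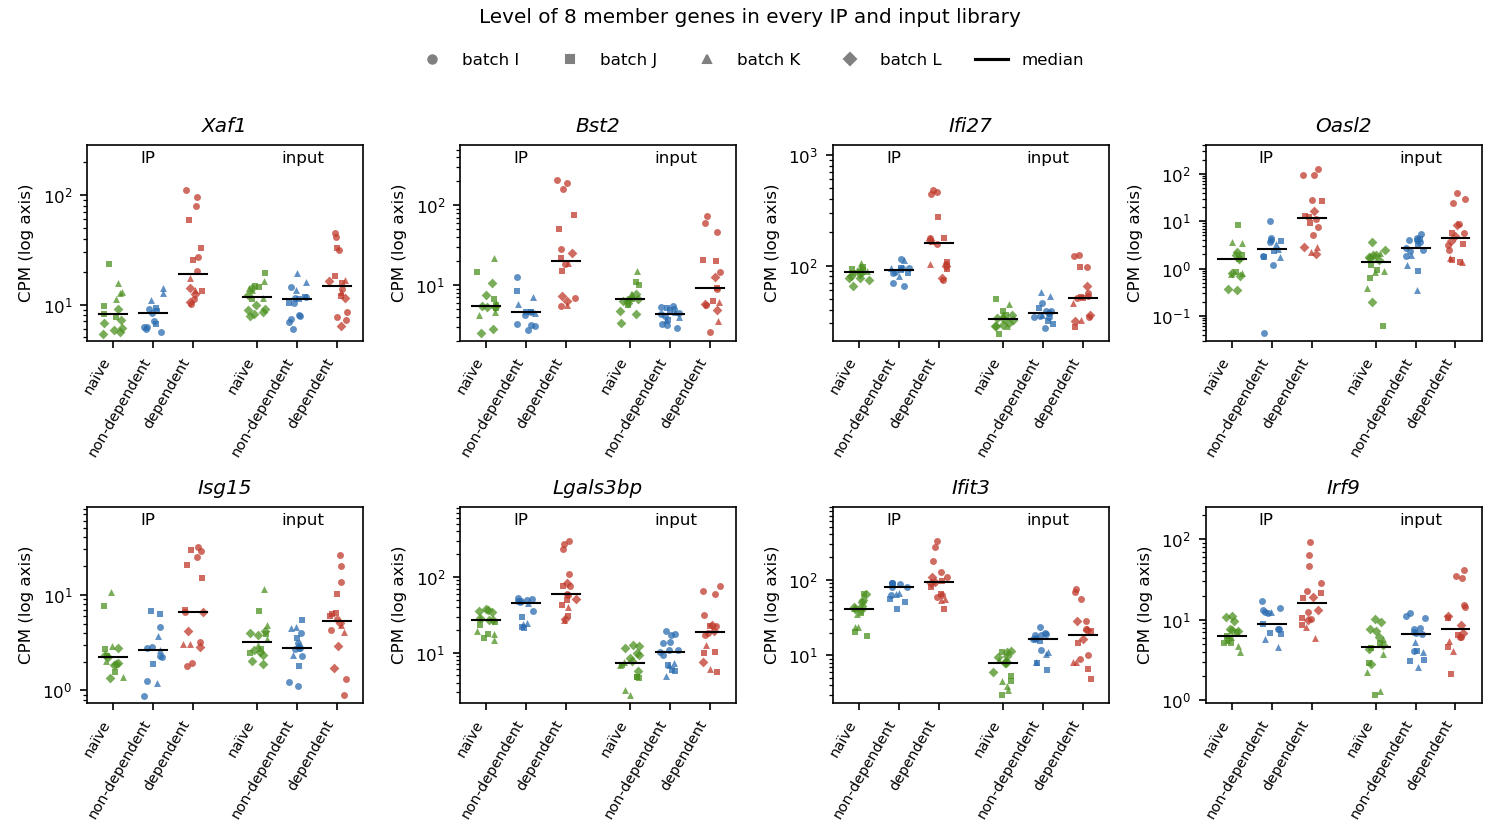
CPM (log axis) of 8 members in every IP and input library of batches I to L, by treatment, with 1 point per library, its shape giving the batch, and a bar at the median. In IP, Xaf1 runs from 10.03 to 112 CPM in dependent mice and from 5.63 to 14.1 in non-dependent ones, and for each gene the dependent points reach far above the others while their lower end overlaps them.

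The rise was uneven between dependent mice. The mean log2 CPM of the 34 tested members was 1.84 to 4.96 (median 3.13) in dependent, 1.89 to 2.42 (median 2.23) in non-dependent and 1.66 to 2.77 (median 1.92) in naive IP libraries. The 9 highest libraries were all of dependent mice, led by I11 (4.96), I02 (4.87), I05 (4.75), J05 (3.89) and I13 (3.37), and the dependent mouse I09, at 1.84, lay below every non-dependent one. Mice I02, I05 and I11 held the 3 highest levels of 25 of the 34 tested members and of 13 of the 15 called ones. These 3 mice were picked by the mean of the same members, so these counts follow in part from that choice. Without these 3 mice 6 members were called against non-dependent mice, namely Xaf1 (1.35, adjusted p = 0.000389), Bst2 (1.98), Oasl2 (2.04), Parp14 (1.88), Ifi27 (0.65) and Lgals3bp (0.63), and the median over the tested members was 0.55, with 31 of 34 above 0. The highest library was a dependent one for 32 of 34 members, the exceptions being Trim30a, highest in the non-dependent mouse J04, and Sp100, highest in the naive mouse L33. These counts of highest libraries are not set against the share of all genes. The same 5 dependent mice were the highest in input, with means from 2.42 (I13) to 3.65 (I11). The dependent females of batches C and G, which are in no fit, had IP means of 2.29 and 2.40, with Xaf1 at 13.8 and 18.1 CPM and Bst2 at 7.62 and 15.7 CPM.

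**Figure D3:**
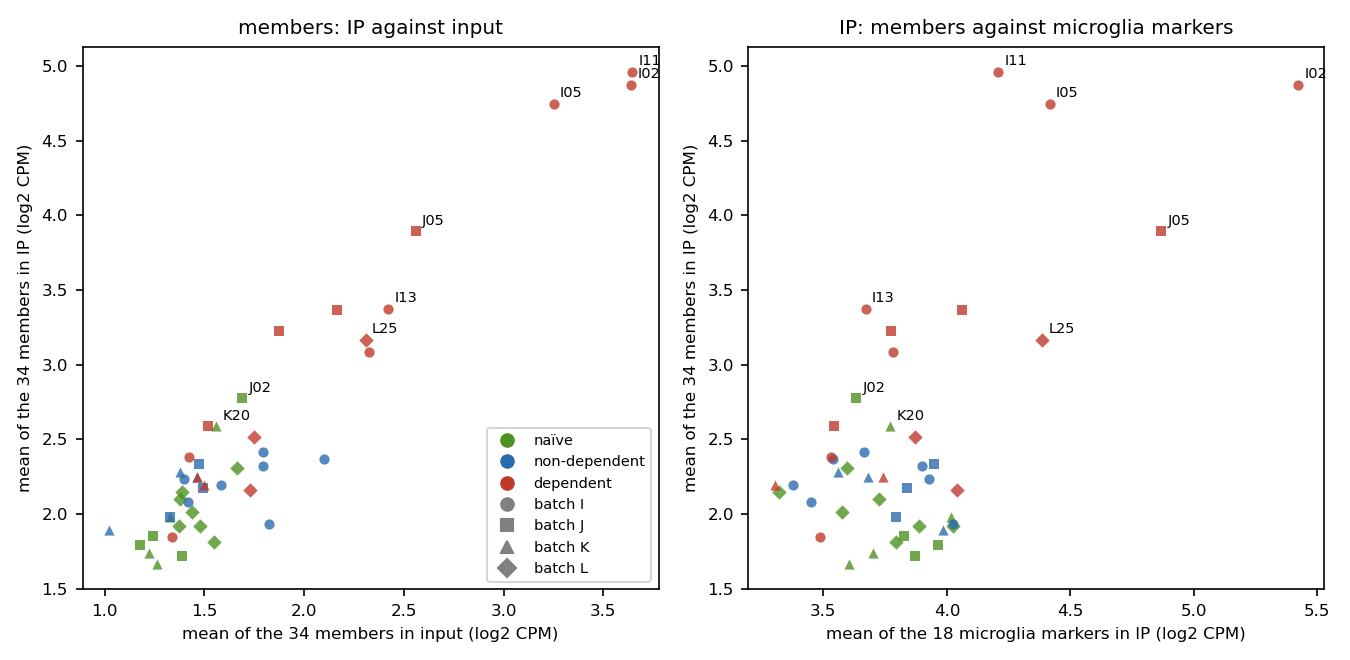
Mean log2 CPM of the 34 tested members in IP for each mouse, plotted against their mean in the input of the same mouse (left) and against the mean of 18 microglia markers in its IP (right), with colours for treatment and shapes for batch. Mice I11, I02 and I05 stand highest on both members' axes, while on the microglia axis I02 (5.42) and J05 (4.87) lie farthest right and I13, at 3.67, lies among the other groups.

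Microglia markers moved with the members in part. Of the 18 markers, 3 were called higher in dependent than in non-dependent IP, the complement genes C1qc (0.83), C1qa (0.75) and C1qb (0.69), 16 of 18 had a fold change above 0, and the median was 0.37. In 7 of 16 dependent IP libraries their mean lay above that of every other group's library, and in input in 1 of 16. The markers P2ry12 (-0.06), Tmem119 (0.20) and Cx3cr1 (0.34) were not called. With the mean of the microglia markers as a covariate, 7 of the 15 members kept their call (Xaf1, Bst2, Ifi27, Parp14, Oasl2, Lgals3bp and Rtp4) and the median over the members was 0.76. Without mice I02 and J05, 12 members were called and the median was 0.96. Of the 12 astrocyte markers 0 were called. Of the T and NK cell markers, Cd3d, Cd3e, Cd3g, Gzma and Gzmb were at 0 in all non-dependent IP libraries and Gzma alone was at 0 in all dependent ones, Ccl5 was the 1 of 4 tested that was called (4.09), and the sum of the 10 markers was 9.01 to 32.6 CPM in dependent and 19.99 to 40.03 in non-dependent libraries. Most of that sum was Cd4, with a median of 15.2 CPM in dependent and 24.9 in non-dependent IP libraries. In the non-dependent ones this level stood beside a count of 0 for Cd3d, Cd3e and Cd3g. Of 10 markers of monocytes, macrophages and plasmacytoid dendritic cells, a cell type that also carries Bst2, 5 were tested and 0 called, and their sum reached 17.8 CPM in dependent and 6.16 in non-dependent IP libraries. What these other cells contribute to the members' change was not tested beyond these values.

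The difference between dependent and non-dependent IP was larger in batches I and J than in batch K. Within batch I (7 and 7 libraries) the median over the tested members of the difference in mean log2 CPM was 1.10, within batch J (4 and 3) 0.89 and within batch K (2 and 3) 0.14, and the difference was above 0 for 33, 32 and 20 of 34 members. The difference in the mean of the microglia markers was 0.38, 0.20 and -0.22 in these batches. Both dependent mice of batch K (K18 and K21) were male, while the non-dependent mice there were of both sexes. The within-batch differences here and below have no sex term, so sex and treatment cannot be told apart in the batch K difference. Bst2 differed by 3.18, 2.61 and 0.97 in batches I, J and K, Oasl2 by 3.66, 2.48 and 0.12, Xaf1 by 2.30, 1.86 and 0.41 and Ifi27 by 1.32, 0.77 and 0.57. Without batch I, which leaves 9 dependent and 6 non-dependent libraries, 0 members were called in edgeR, 32 of 34 fold changes were above 0 and the median was 0.65. Xaf1 then showed a log2 fold change of 1.40 (adjusted p = 0.0525) and Bst2 of 2.26 (adjusted p = 0.0978).

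Dependent mice were next compared with naive mice, which share batches J, K and L. This comparison uses the same dependent libraries as the one above. Here 13 of the 34 tested members were higher in dependent IP, where 2.81% of all genes were, and 0 were lower; the median log2 fold change was 0.93. Ifit3 and its paralog Ifit3b had the smallest p, with 1.13 ± 0.21 (adjusted p = 0.000748) and 0.88 ± 0.17 (adjusted p = 0.00123). Ifit3b spanned 24 to 143 (median 43.9) CPM in dependent and 15.1 to 34.1 (median 23.2) in naive libraries, which overlapped, with 25.4 to 63.4 (median 41.3) in non-dependent ones. The RNA sensor Ifih1, with 3.61 to 22.4 (median 4.87) CPM in dependent, 2.91 to 8.54 (median 4.92) in non-dependent and 0.962 to 6.65 (median 2.77) in naive libraries, rose by 1.06 ± 0.29 (adjusted p = 0.0238).

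The other 10 genes called against naive mice were called against non-dependent mice as well. Against naive mice Oasl2 rose by 2.50 ± 0.58 (adjusted p = 0.00752), Rtp4 by 2.26 ± 0.48 (adjusted p = 0.00293), Irf7 by 1.92 ± 0.44 (adjusted p = 0.00494), Bst2 by 1.88 ± 0.54 (adjusted p = 0.0365) and Xaf1 by 1.29 ± 0.32 (adjusted p = 0.013). Lgals3bp (1.15), Irf9 (1.08), Ifi35 (1.04), Ifi27 (0.80) and Trim25 (0.52) had adjusted p between 0.00295 (Lgals3bp) and 0.0486 (Trim25). Isg15 (1.42), Dtx3l (0.89), Parp14 (1.36), Zbp1 (2.84) and Ifi44 (2.93) did not pass, Isg15 with an adjusted p of 0.0525. Fold changes of the 16 further tested members ran from -0.74 (Sp100) to 1.45 (Ifit1), with 3 below 0, those of Sp100, Cmpk2 (-0.16) and Trim30a (-0.11). Within batches J, K and L the median difference over the tested members was 1.03, 0.36 and 0.60, and without batch I 13 members were called. Without I02, I05 and I11 the count was 11. The count fell to 8 without mouse J05, without mouse L25 or without both I02 and J05, and to 5 with limma voom, in batches J and K alone or with only these 2 treatments in the fit. The calls of Ifit3, Ifit3b, Irf7, Irf9, Lgals3bp, Rtp4 and Xaf1 held whichever of the 31 libraries was left out. Ifih1 lost its call without J05 and Oasl2 without L25, Bst2 in 8 of the 31 runs, Ifi27 in 10, Ifi35 in 12 and Trim25 in 22, J05 and L25 among them each time. With the mean of the microglia markers as a covariate 7 members were called. Of the 18 microglia markers 0 were called in this comparison, 17 were above 0 and the median was 0.34. Of the T and NK cell markers Nkg7 (adjusted p = 0.0127) and Ccl5 (4.25 ± 1.08, adjusted p = 0.0132) were called higher. Nkg7 had a count of 0 in all 15 naive IP libraries, so no size is given for its rise. The part of T and NK cells and microglia in the result was not tested further.

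**Figure D4:**
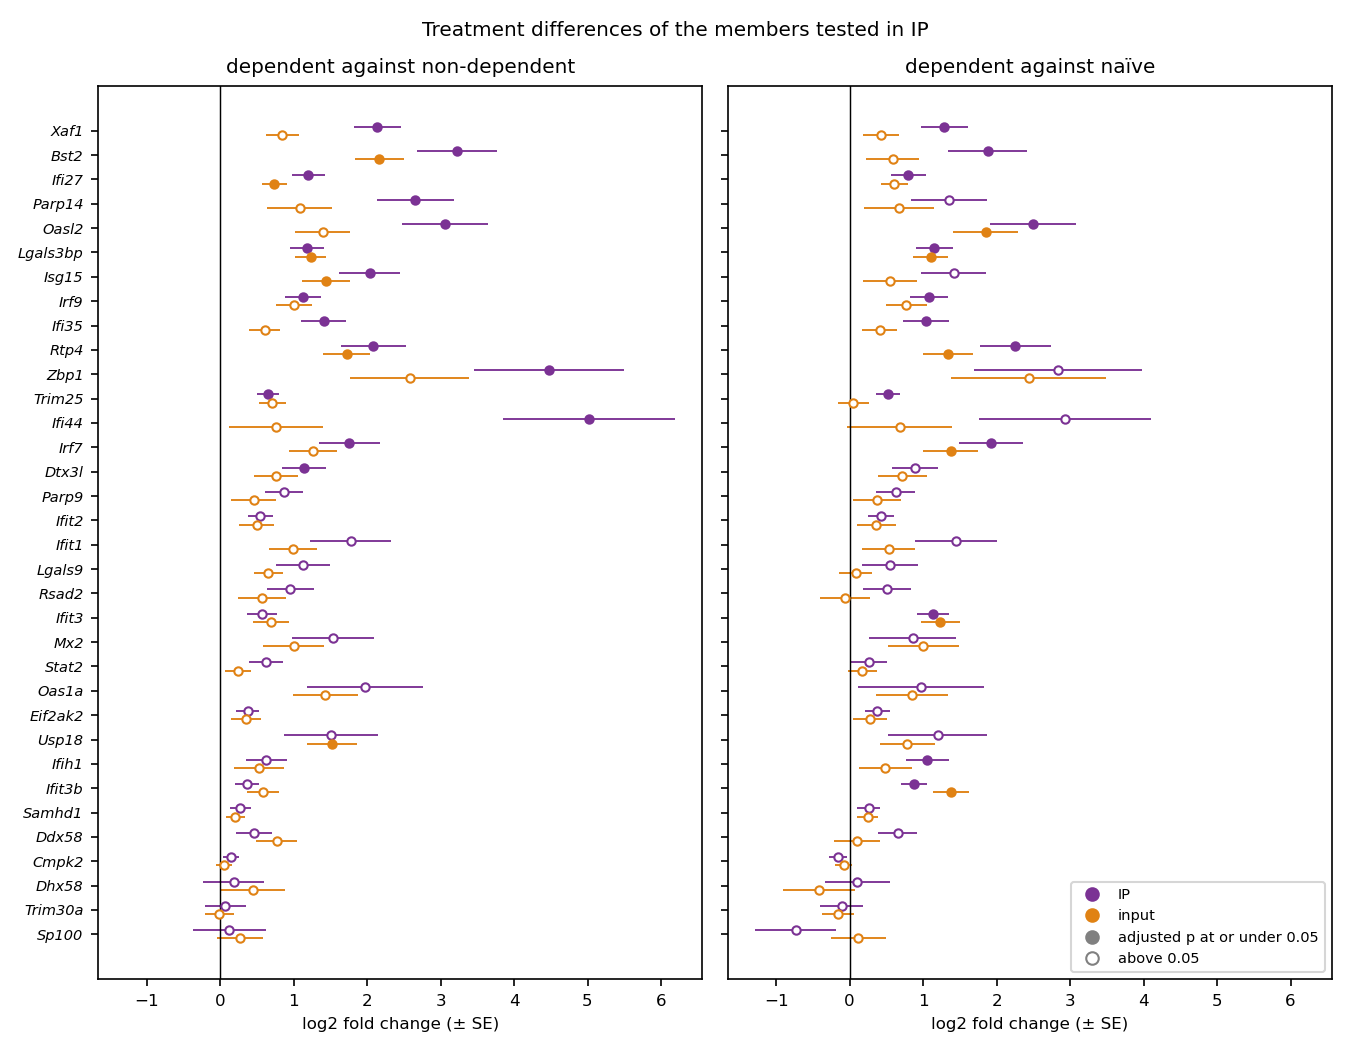
Log2 fold change with its SE of each member tested in IP, in dependent against non-dependent mice and in dependent against naive mice, for IP and for input, with filled points for an adjusted p at or under 0.05. In IP, 34 of 34 points lie above 0 against non-dependent mice and 31 of 34 against naive mice. Ifi44, Zbp1, Bst2 and Oasl2 lie farthest right against non-dependent mice, and Ifi44, Zbp1, Oasl2 and Rtp4 against naive mice.

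Drinking alone was compared with no ethanol. In edgeR 0 of 34 tested members were called in IP between non-dependent and naive mice, where 0.440% of all genes were called in either direction. DESeq2 and limma voom also called 0. An unadjusted p under 0.05 was seen for 6 members, a count not set against the share of all genes. The median fold change was -0.31, and 7 of 34 were above 0, values not set against all genes here. The mean log2 CPM of the members went the other way, with a median of 2.23 over non-dependent and 1.92 over naive IP libraries. Ifit3 (0.56 ± 0.23, adjusted p = 0.36) and Ifit3b (0.51 ± 0.19, adjusted p = 0.283) had positive values, whereas Bst2 (-1.34 ± 0.58, adjusted p = 0.393), Parp14 (-1.30) and Xaf1 (-0.85) had negative ones. These groups meet only in batches J and K, where the median difference over members was 0.17 and -0.06. In the fit, batches I and L link them only through the dependent mice, so the direction of the small differences is left unsettled.

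Whether the difference between dependent and non-dependent IP depended on sex was tested as an interaction. In edgeR 0 members and 0% of all genes were called, and DESeq2 and limma voom called 0 members. An unadjusted p under 0.05 was seen for 3 members (Parp9, Zbp1 and Ifi44), a count not set against the share of all genes. The fold change in females minus that in males was 0.49 ± 0.58 for Xaf1, 0.76 ± 0.96 for Bst2, 1.28 ± 0.50 for Parp9 and 0.73 ± 0.79 for Isg15, so the intervals around these differences are wide. The mean of the members was 1.84 to 4.87 (median 3.30) in the 8 dependent females and 2.19 to 4.96 (median 2.55) in the 8 dependent males.

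In the RNA of the whole punch, 35 members were tested and 6 were higher in dependent than in non-dependent mice, where 0.310% of all genes were. The median fold change was 0.76 and 34 of 35 were above 0. Bst2 spanned 2.55 to 72.6 (median 9.05) CPM in dependent, 2.9 to 5.38 (median 4.32) in non-dependent and 3.31 to 14.8 (median 6.67) in naive input libraries, a log2 fold change against non-dependent mice of 2.17 ± 0.33 (adjusted p = 0.000265). Lgals3bp spanned 5.64 to 76.7 (median 18.8), 4.9 to 19.1 (median 10.3) and 2.74 to 12.5 (median 7.28) CPM in the same order, with 1.23 ± 0.21 (adjusted p = 0.00132). Rtp4 spanned 1.85 to 52.6 (median 9.98), 1.31 to 7.96 (median 3.88) and 1.7 to 7.8 (median 3.04) CPM, with 1.72 ± 0.32 (adjusted p = 0.00354). For each of the 3 genes the groups overlapped.

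Usp18, the enzyme that removes Isg15, spanned 0.571 to 13.6 (median 1.7) CPM in dependent, 0.078 to 3.4 (median 0.836) in non-dependent and 0.136 to 2.61 (median 0.773) in naive input libraries and rose by 1.52 ± 0.34 (adjusted p = 0.0226). Isg15 itself rose by 1.44 ± 0.33 (adjusted p = 0.0259), with 0.90 to 26.4 (median 5.29) CPM in dependent, 1.1 to 5.46 (median 2.8) in non-dependent and 1.89 to 11.4 (median 3.21) in naive libraries, and Ifi27 by 0.74 ± 0.17 (adjusted p = 0.026). The count of 6 was 3 without mouse I05 or without mouse I11 and 10 without mouse I09 or without mouse I15. It was 4 without I02 and J05, 1 (Bst2) without I02, I05 and I11, and 0 without batch I. Usp18 lost its call without I05 or I11, Ifi27 without I02, I05, I06, I11 or J11, and Isg15 without I01, I02, I05, I11 or J03, while those of Bst2, Lgals3bp and Rtp4 held without any 1 of 31.

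Against naive mice 6 members were higher in dependent input, where 1.42% of all genes were. They were Ifit3b (1.38 ± 0.25, adjusted p = 0.000705), Ifit3 (1.23 ± 0.26, adjusted p = 0.00558), Lgals3bp (1.11 ± 0.24, adjusted p = 0.00566), Oasl2 (1.85 ± 0.44, adjusted p = 0.0131), Rtp4 (1.34 ± 0.34, adjusted p = 0.0264) and Irf7 (1.37 ± 0.37, adjusted p = 0.0338). Ifit3 spanned 4.81 to 76 (median 18.7) CPM in dependent, 6.32 to 23.6 (median 16.5) in non-dependent and 2.96 to 11.4 (median 7.91) in naive input libraries, so that here too the non-dependent median lay nearer to the dependent one. Ifit3b spanned 3.28 to 27.4 (median 7.7), 2.43 to 12.8 (median 6.23) and 0.914 to 7.38 (median 3.13) CPM, Oasl2 1.36 to 39.3 (median 4.33), 0.357 to 5.48 (median 2.71) and 0.0607 to 3.66 (median 1.34), and Irf7 0.713 to 28 (median 3.17), 0.522 to 5.43 (median 2.84) and 0.315 to 2.59 (median 1.55). Irf7 and Rtp4 lost their calls without mouse J07 or L25, and Irf7 also without J01, J05, J08 or K13. The count of 6 was 0 in batches J and K alone, 1 with only these 2 treatments in the fit and 2 with limma voom. It was 4 without I02 and J05 and 6 without I02, I05 and I11. Bst2 was not called here (0.59 ± 0.36, adjusted p = 0.529), and between non-dependent and naive input, where edgeR called 0 of 35 members and 0.122% of all genes, it had -1.58 ± 0.39 (adjusted p = 0.11). At an unadjusted p under 0.05 there were 5 members in that last comparison, a count not set against the share of all genes. DESeq2 called 1 member there, Bst2, lower in non-dependent mice.

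IP was then compared with the input of the same mouse over 46 mice, which asks how far each transcript is enriched on astrocyte ribosomes. Of 36 members tested, 26 were higher in IP, where 33.6% of all genes were, and 4 were lower, where 45.0% were. The median log2 fold change was 0.97, against -0.16 over all genes. Ifit3b ran from 15.1 to 143 CPM (median 33.6) in IP and from 0.914 to 27.4 (median 5.09) in input, exceeded its input in 46 of 46 mice and showed a log2 fold change of 2.74 ± 0.07 (adjusted p = 6.87e-43). Ifit3 (2.56 ± 0.05, adjusted p = 3.95e-47), Eif2ak2 (2.34 ± 0.09, adjusted p = 3.33e-33) and Lgals3bp (2.09 ± 0.05, adjusted p = 2.38e-44) likewise exceeded their input in all 46 mice, with medians of 62.3, 13.4 and 35.6 CPM in IP and 9.9, 3.05 and 9.55 in input. These values lie under the median of 3.11 of the 12 astrocyte markers.

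At the other end, Sp100 (-0.98 ± 0.15, adjusted p = 2.42e-08), Lgals9 (-0.78 ± 0.11, adjusted p = 3.93e-09) and Trim30a (-0.65 ± 0.12, adjusted p = 3.09e-06) were lower in IP, and Oas2, at -0.82 ± 0.43 (adjusted p = 0.0764), was not called. Sp100 had medians of 0.708 CPM in IP and 1.74 in input and exceeded its input in 4 of 46 mice, Lgals9 of 2.73 and 5.88 CPM and 3 of 46 mice, and Trim30a of 86.6 and 156 CPM and 7 of 46. Irf7 was the fourth gene called lower (-0.27 ± 0.11, adjusted p = 0.0181). The sensors Ifih1 (1.85), Ddx58 (1.47) and Dhx58 (1.11) were higher in IP, as were Parp9 (1.72), Ifi27 (1.57), Trim25 (1.51), Ifit2 (1.45), Cmpk2 (1.42), Rsad2 (1.34), Dtx3l (1.25), Oasl2 (1.16), Ifit1 (1.15), Rtp4 (1.01), Irf9 (0.93), Bst2 (0.89), Usp18 (0.80), Samhd1 (0.57), Parp14 (0.49), Mx2 (0.45), Isg15 (0.38) and Xaf1 (0.28). For the last of these the mice were divided: Xaf1 exceeded its input in 20 of 46 mice (medians 11.1 and 12.1 CPM), Isg15 in 22 (2.83 and 3.82 CPM), Mx2 in 23 and Parp14 in 24 (0.694 and 0.912 CPM). This test pools the mice of all treatments. In naive mice alone, the median CPM per kilobase of exon was lower in IP than in input for Bst2 (6.06 and 7.39), Xaf1 (1.74 and 2.52) and Isg15 (2.95 and 4.25). The same held for Ifit1, Usp18, Parp14 and Ifi44, while the other members called higher had the higher naive median in IP. DESeq2 called 21 members higher and 6 lower. Ifi44, also called higher in edgeR (1.22), exceeded its input in 16 of 46 mice (medians 0.0349 and 0.251 CPM). Its fold change had the opposite sign in DESeq2, at -1.03. Zbp1, Ifi35, Stat2, Oas1a and Oasl1 were not called.

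**Figure D5:**
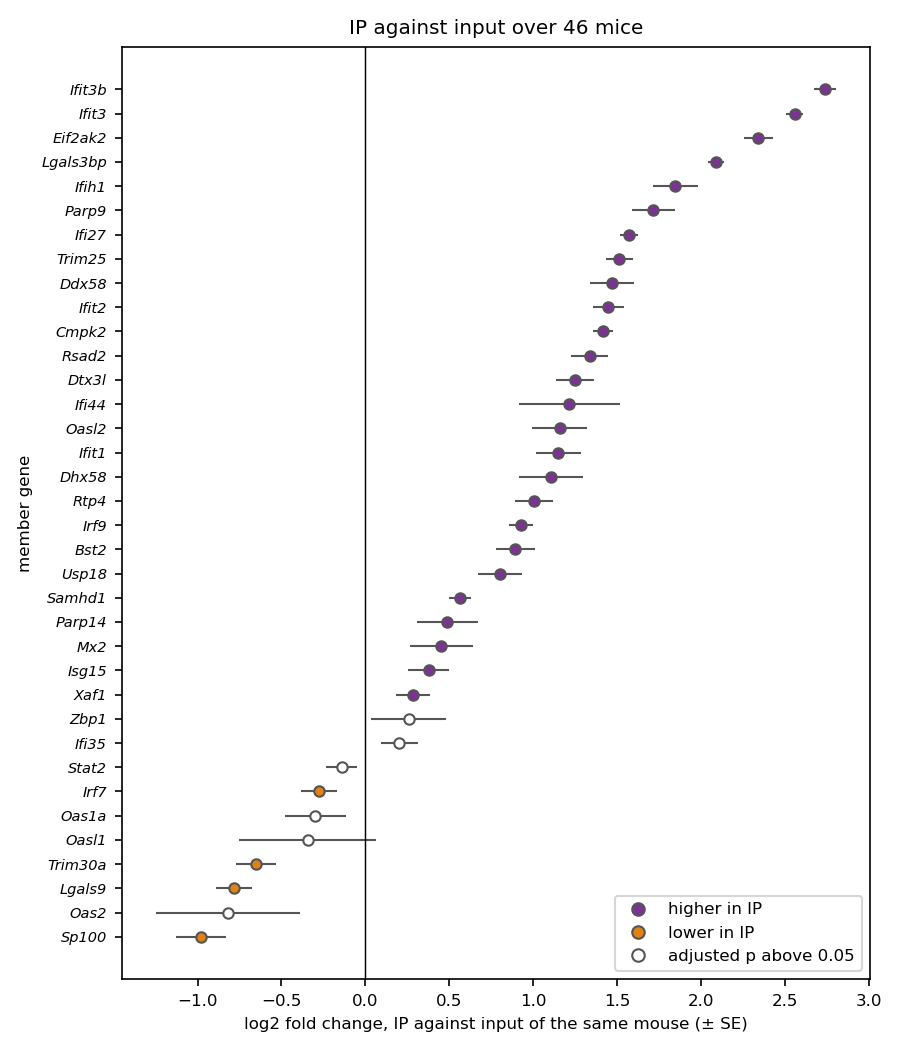
Log2 fold change of IP against the input of the same mouse, with its SE, for the 36 members tested over 46 mice, ordered by size. Ifit3b (2.74), Ifit3 (2.56), Eif2ak2 (2.34) and Lgals3bp (2.09) lie highest and Sp100 (-0.98) lowest.

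Levels without ethanol were compared between genes per length, as CPM per kilobase of exon in the 15 naive IP libraries. Ifi27 was highest at 45 to 72.4 (median 59.2), followed by Trim30a (median 23.7), Ifit3 (23.3), Cmpk2 (14.4), Ifit3b (11.6) and Lgals3bp (9.49). Each of these overlapped its neighbour in that order over the libraries. Bst2 stood at 6.06, Isg15 at 2.95 and Xaf1 at 1.74, while Ifi44, Zbp1, Mx1, Oas2 and Oasl1 had a median of 0. In IP the 3 members that were not tested reached at most 0.652 (Mx1), 1.79 (Oasl1) and 0.735 (Oas2) CPM in dependent and 0.416, 0.945 and 0.983 in non-dependent libraries.

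Whether the treatment difference was larger in IP than in input was tested in the mice with both libraries. Between dependent and non-dependent mice it was larger in IP for 4 of 36 members tested, where 0.0923% of all genes were: Xaf1 by 1.26 ± 0.18 (adjusted p = 0.000139), Oasl2 by 2.01 ± 0.31 (adjusted p = 0.000184), Ifi44 by 4.95 ± 0.98 (adjusted p = 0.0133) and Bst2 by 1.16 ± 0.25 (adjusted p = 0.0293). Xaf1 had medians of 18.8 CPM in dependent and 8.35 in non-dependent IP libraries, against 14.7 and 11.3 in input, and Oasl2 of 11.6 and 2.62 in IP, against 4.33 and 2.71 in input. Between dependent and naive mice 2 members were called, where 0.162% of all genes were, Bst2 by 1.26 ± 0.24 (adjusted p = 0.00414) and Xaf1 by 0.80 ± 0.18 (adjusted p = 0.0303). Lgals3bp, called in both fractions, had a difference of -0.03 ± 0.13, Ifit3 of -0.07 ± 0.13 and Isg15 of 0.54 ± 0.29 against non-dependent mice. Without batch I, 0 members were called against non-dependent and 1 against naive mice, and without I02, I05 and I11 these counts were 2 (Xaf1 and Oasl2) and 2.

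The rest of the interferon pathway was read from a list of 39 genes, of which 29 were tested; those called higher in dependent than in non-dependent IP included Irf1, Ifnar2, Stat3 and Irf8. Irf1, a transcription factor shared by interferon alpha, beta and gamma signalling, spanned 2.77 to 62.2 (median 12.5) CPM in dependent, 3.13 to 8.31 (median 4.9) in non-dependent and 1.23 to 10.2 (median 4.93) in naive libraries and rose by 1.57 ± 0.29 (adjusted p = 0.00173). The receptor subunit Ifnar2 spanned 16.6 to 29 (median 23.3), 13.3 to 22.9 (median 17.8) and 13 to 23.4 (median 18.4) CPM in the same order and rose by 0.44 ± 0.09 (adjusted p = 0.00447). Stat3, which carries the signals of many cytokines, spanned 59.6 to 132 (median 92), 54.5 to 98.2 (median 63.4) and 46.2 to 90.7 (median 66.1) CPM and rose by 0.43 ± 0.09 (adjusted p = 0.00429). For these 3 genes the groups overlapped. Irf8, a factor of microglia and other myeloid cells, rose by 1.21 ± 0.30 (adjusted p = 0.021). Ifnar1, Ifngr1, Ifngr2, the 3 kinases, the 4 negative regulators and the 12 sensing pathway genes tested were not called. Without I02, I05 and I11 Irf1 (1.07, adjusted p = 0.0157), Ifnar2 (0.42, adjusted p = 0.0286) and Stat3 (0.39, adjusted p = 0.0334) kept their calls and Irf8 (0.60, adjusted p = 0.394) did not, and without batch I none of the 4 was called. Against naive mice without batch I, edgeR called Stat3 (0.45, adjusted p = 0.00134), Irf1 (0.89, adjusted p = 0.0210) and Irf8 (0.80, adjusted p = 0.0251) higher. Ifnar2 (0.30, adjusted p = 0.130) was not called there.

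The ligands themselves were at or near 0. Ifnb1, Ifna1, Ifna2, Ifna4, Ifna5, Ifne and Ifnl2 had a count of 0 in all 91 libraries of batches I to L, which allows at most 0.00177 CPM (3 counts over their summed total, a limit that covers counting error only). Ifng had 0 in all 16 dependent IP libraries, which allows at most 0.00898 CPM, and counts in 1 non-dependent (0.292 CPM) and 1 naive (0.124 CPM) IP library. In input the order differed. There Ifng had counts in at least 1 dependent and at least 1 non-dependent library, and 0 in all 16 naive ones. At this depth none of the 9 interferon genes on the list, Ifnk included, was detectable in the IP of dependent mice.

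Of a list of 16 genes that answer mainly to interferon gamma, all 16 were tested and 11 were higher in dependent than in non-dependent IP, where 1.10% of all genes were, with a median log2 fold change of 2.55. Igtp, a GTPase of pathogen vacuoles, spanned 4.88 to 379 (median 29.3) CPM in dependent, 3.3 to 10.7 (median 6.99) in non-dependent and 2.74 to 10.8 (median 5.03) in naive libraries and rose by 3.14 ± 0.57 (adjusted p = 0.00184). Gbp2 spanned 2.92 to 94.1 (median 13.6), 0.912 to 6.17 (median 3.32) and 0.268 to 6.15 (median 1.61) CPM and rose by 2.60 ± 0.49 (adjusted p = 0.00199), and Gbp6 rose by 2.96 ± 0.62 (adjusted p = 0.00524), from 0.14 to 1.88 (median 0.513) in non-dependent to 0.0921 to 33.2 (median 1.66) CPM in dependent libraries. The chemokine Cxcl9 had a count of 0 in all 13 non-dependent and all 15 naive IP libraries. In dependent ones it reached 8.67 CPM, with a median of 0.531 and 5 of 16 at 0. Over the pooled libraries Cxcl9 was at least 171-fold higher in dependent than in non-dependent IP (floor of 3 counts over the group). This bound covers counting error only and not the spread between mice. The median of the list is 2.55 with Cxcl9 at that bound. The mean of the 16 genes differed by 2.64, 1.88 and -0.09 between dependent and non-dependent mice in batches I, J and K. Without I02 and J05 8 of the 16 were called, without I02, I05 and I11 4, with a median of 1.54, and without batch I 0, with a median of 1.36. Against naive mice without batch I 5 of the 16 were called higher, with a median of 1.96, a count not set against the share of all genes. Beside the list's median of 2.55 against non-dependent mice the members' median of 1.14 is smaller, and the difference between the 2 lists was not tested.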

How the data were processed

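The authors deposited 1 table of gene counts for 95 libraries, per the file headers. Per the labels' protocols, astrocyte RNA was isolated by ribosome affinity purification and a Takara SMART-Seq PLUS kit was used to make the libraries. The submitters' processing notes name FastQC 0.11.9, Trimmomatic 0.39, STAR 2.7.10b and GRCm38. The counting tool, its annotation and its use of strand are not given in the sources used here. Of 55471 features, 40308 had a count and 55230 matched a symbol in GENCODE mouse release 21.

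The deposited counts were tested with edgeR 4.0.16 in R 4.3.3. TMM scaling, filterByExpr (minimum count 10, total 15) and the robust quasi-likelihood F test were used, with Benjamini-Hochberg adjustment over all genes tested, called at 0.05. Each fraction had 1 fit with treatment by sex groups and batch. IP against input, and the difference of treatment effects between fractions, had the mouse as a block, since both libraries come from the same animal. Levels are CPM. Mean levels use log2 CPM with a prior count of 2. Alternatives were DESeq2 1.42.0, limma voom (limma 3.58.1), other scaling, no count filter, no batch term, the 2 treatments alone, a microglia covariate, batches left out, and each library left out. The tests were also run on simulated counts with the same spread for every gene and the same shift in every changed library. That setting leaves out batches and uneven mice, so it does not check the calls against them.

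The members and gene lists were chosen with earlier results of these data known. Named genes followed a rule: all members, with values per group for the 12 with the smallest p in dependent against non-dependent IP, those called in another treatment comparison, and the 4 highest and 4 lowest in IP against input. Values of Ifit1, Trim30a and the members of other ranks that are named singly were taken after their values were seen. From the pathway and interferon gamma lists the 4 genes with the smallest p were taken, of which 1 is not reported here, and Irf8 was added after its value was seen. Promoters followed p as well, and 4 of them are printed. Batches C and G, with 1 dependent mouse each, were left out of the fits.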

Additional observations from a re-analysis of the deposited data

Results flagged for a closer look

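Some treatment differences of members were larger in IP than in the input of the same mice, by a test of the difference itself. Against non-dependent mice these were Ifi44 (4.95 ± 0.98, adjusted p = 0.0133), Oasl2 (2.01 ± 0.31, adjusted p = 0.000184), Xaf1 (1.26 ± 0.18, adjusted p = 0.000139) and Bst2 (1.16 ± 0.25, adjusted p = 0.0293), each as IP minus input on the log2 scale in edgeR with the mouse as a block. Against naive mice they were Bst2 (1.26 ± 0.24, adjusted p = 0.00414) and Xaf1 (0.80 ± 0.18, adjusted p = 0.0303). Both comparisons use the same dependent mice. Without batch I, 0 members were called against non-dependent and 1 against naive mice. Ifi44 had a median of 1.32 CPM in dependent and 0 in non-dependent IP libraries, and of 0.476 and 0.39 in input, so its value rests on few counts.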

How the results depend on the processing

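The count of members called in IP between dependent and non-dependent mice, 15, was 0 in batches J and K alone, 0 without batch I, 7 with the microglia covariate, 6 without mice I02, I05 and I11 and 26 without a count filter, and 14 to 16 with any 1 library left out. Between dependent and naive IP the count of 13 was 5 in batches J and K alone, 5 with limma voom, 5 with only the 2 treatments, 7 with the microglia covariate, 8 without mice I02 and J05, 20 without a batch term and 20 without a count filter, and 8 to 15 with 1 library left out. Between non-dependent and naive IP the count of 0 was 6 without a count filter (2 higher, 4 lower) and 1 with only the 2 treatments, and 0 to 0 with 1 library left out. The sex interaction gave 3 without a count filter in place of 0.

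In input against non-dependent mice the count of 6 was 10 with DESeq2, 2 with limma voom, 2 without a batch term, 2 with only the 2 treatments, 0 in batches J and K alone, 1 without mice I02, I05 and I11 and 0 without batch I, and 3 to 10 with 1 library left out. Against naive mice the count of 6 was 2 with limma voom, 0 in batches J and K alone, 11 without a batch term and 1 with only the 2 treatments, and 4 to 7 with 1 library left out. Between non-dependent and naive input the count of 0 was 1 with DESeq2 and 1 with only the 2 treatments, and 0 to 0 with 1 library left out.

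The mouse block pairs IP with input. Without it the calls in IP against input numbered 27 in place of 30, and the differences between fractions gave 0 in place of 4 against non-dependent mice and 0 in place of 2 against naive mice. The treatment comparisons within a fraction share no mouse and have no block. Without batch I the differences between fractions gave 0 and 1, and without mice I02 and J05 the latter gave 1. Without mice I02, I05 and I11 the former gave 2. With fewer samples or genes tested in some of these settings, the cause was not tested further. The counts of members under these alternatives are not set beside the number of all genes called in each setting.

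A few fold changes turned sign, and the cause was not tested. In IP against non-dependent mice Sp100 was -0.39 in batches J and K alone, -0.23 with limma voom, -0.51 with the microglia covariate, -0.52 without batch I, -0.16 without mice I02 and J05, -0.77 without mice I02, I05 and I11, and -0.10 to 0.33 with 1 library left out, below 0 without I02, I05 or I06. Trim30a was -0.072 with the microglia covariate, -0.066 without mice I02 and J05, -0.19 without mice I02, I05 and I11, and -0.11 to 0.25 with 1 library left out, below 0 without I02 or K15. Samhd1 was -0.00505 without mice I02, I05 and I11, Cmpk2 was -0.017 without batch I and Ifih1 -0.15 in batches J and K alone. In IP against input Ifi44 was -1.03 and Zbp1 -0.87 with DESeq2. In the difference between fractions Ifit3 was 0.000234 without batch I 0.072 without mice I02, I05 and I11, and 0.012 without mice I02 and J05, where Lgals3bp was 0.025. Apart from the runs with 1 library left out, the called members' fold changes kept direction and call in 458 values, lost the call in 173 and turned sign in 1. With 1 library left out they kept both in 1135 and lost the call in 81. The alternatives without batch I, without mice I02 and J05 and without mice I02, I05 and I11 were chosen after seeing the data. Depth limits Zbp1, Ifi44, Oas2, Oasl1 and Mx1, which were at 0 in many libraries.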
